A study of Mus musculus with 6 samples.

Results

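The expression of 10 genes of MHC class I antigen presentation was compared between reprogramming fibroblasts with and without AKT activation, among 54331 genes listed in the RNA sequencing data. The genes were chosen by symbol for their place in the pathway, with earlier results of these data known. All 10 were found, were above the filter on low values and were tested. They are the heavy chain genes *H2-K1* and *H2-D1*, the light chain gene *B2m*, the peptide transporter genes *Tap1* and *Tap2*, the tapasin gene *Tapbp*, the immunoproteasome subunit genes *Psmb8*, *Psmb9* and *Psmb10*, and the transactivator gene *Nlrc5*. The cells were mouse embryonic fibroblasts (MEFs), pooled from several male embryos that carried an *Oct4*-EGFP transgene on a mixed C57BL/6, DBA/2 and ICR background. Retroviruses delivered Oct4, Sox2, Klf4 (OSK) and AKT-MER to the cells of every well. AKT-MER is myristoylated AKT joined to a modified estrogen receptor, and it becomes active when 4-hydroxytamoxifen (4OHT) binds. After replating, 3 wells received 4OHT (OSKA + 4OHT) and 3 wells received the ethanol vehicle (OSKA − 4OHT), and RNA was taken at 10 days post infection (dpi). No library from 4OHT-treated cells without AKT-MER was analysed here, so AKT activation and other actions of 4OHT cannot be told apart in these libraries. The study compared OSK cells with and without 4OHT by colony counts and, on an earlier day, by microarray. It reports that the effects of 4OHT in them were limited. The wells were plated from the same infected pool, so the p-values measure the spread between wells and not between animals. The RNA is that of whole wells in which reprogramming and unreprogrammed cells are mixed, and more cells that express a gene cannot be told apart from more RNA per cell.

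MHC class I molecules carry peptides from inside the cell to its surface, where T cells and natural killer cells read them. The peptides are cut by the proteasome, carried into the endoplasmic reticulum by the TAP1-TAP2 transporter, and loaded with the help of tapasin onto a heavy chain bound to β2-microglobulin. Interferons are known to raise most of these genes, to exchange the constitutive catalytic subunits of the proteasome for the immunoproteasome subunits, and to induce NLRC5, which acts on class I promoters together with the RFX, CREB/ATF and NF-Y factors. Fibroblasts carry class I molecules at a moderate level, and mouse pluripotent cells are known for a low one.

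Of the 10 genes, 7 lie in the H2 region of chromosome 17 (GRCm38). Along the chromosome these are *Tapbp* (chr17:33915899-33929292), *H2-K1* (chr17:33996017-34000347), *Psmb9* (chr17:34181987-34187764), *Tap1* (chr17:34187553-34197225), *Psmb8* (chr17:34197721-34201454), *Tap2* (chr17:34203527-34216321) and *H2-D1* (chr17:35262730-35267499). *B2m* lies on chromosome 2 (chr2:122147686-122153083). *Nlrc5* (chr8:94434356-94527272) and *Psmb10* (chr8:105935735-105938444) lie on chromosome 8. *Psmb9* and *Tap1* overlap at their 5′ ends on opposite strands, and whether strand was used to assign reads is not given in the sources used here.

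The 250 bases before the start site are shown for 4 of the genes, from the RefSeq promoter table of GRCm38.p6, 5′ to 3′ on the strand of the gene. The heavy chain and light chain promoters are shown because they hold NF-kB and CCAAT letters, which regulators described further on are known to bind. The *B2m* window also holds a match to the exact interferon response letters searched for here. The *Tap1* window is shown because it also serves *Psmb9*. Capitals mark the CCAAT letters, the NF-kB motif and the core of the interferon-stimulated response element (ISRE), each read on both strands. The windows are chr17:34000334-34000583 (minus strand) for *H2-K1*, chr17:35262844-35263093 (plus strand) for *H2-D1*, chr2:122147437-122147686 (plus strand) for *B2m* and chr17:34187306-34187555 (plus strand) for *Tap1*.
H2-K1: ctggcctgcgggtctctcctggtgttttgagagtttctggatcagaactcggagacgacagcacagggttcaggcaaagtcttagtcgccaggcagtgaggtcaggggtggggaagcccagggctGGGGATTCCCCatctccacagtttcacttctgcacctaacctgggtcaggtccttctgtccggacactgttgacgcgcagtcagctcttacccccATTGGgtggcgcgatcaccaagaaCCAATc
H2-D1: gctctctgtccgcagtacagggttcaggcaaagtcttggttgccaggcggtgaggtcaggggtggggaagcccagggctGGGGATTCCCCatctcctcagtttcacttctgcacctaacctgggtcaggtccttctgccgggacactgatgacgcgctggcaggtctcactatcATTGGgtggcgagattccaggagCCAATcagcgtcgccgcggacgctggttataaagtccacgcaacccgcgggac
B2m: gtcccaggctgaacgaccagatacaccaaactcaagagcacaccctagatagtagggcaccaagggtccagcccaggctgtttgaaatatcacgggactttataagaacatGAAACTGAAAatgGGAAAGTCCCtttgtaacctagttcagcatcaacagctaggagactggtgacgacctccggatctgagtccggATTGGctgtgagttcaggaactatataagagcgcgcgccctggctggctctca
Tap1: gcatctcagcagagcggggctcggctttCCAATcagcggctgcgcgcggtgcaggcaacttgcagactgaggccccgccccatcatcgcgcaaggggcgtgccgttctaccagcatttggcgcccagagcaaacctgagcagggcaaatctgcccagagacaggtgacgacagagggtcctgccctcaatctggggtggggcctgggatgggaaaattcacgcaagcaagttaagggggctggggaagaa

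The *H2-K1* and *H2-D1* windows are near copies, with 169 of 204 compared bases identical (82.8%) when 1 is shifted by 46 bases. Each holds the NF-kB motif in 2 overlapping frames and the CCAAT letters at 2 places. In *B2m* the ISRE core starts at position -139 from the start site, the NF-kB motif at -126 and the CCAAT letters at -53. The promoter table held 8 of the 10 genes, in windows of 300 bases that also take in 50 bases after the start site. Among these 8 genes the ISRE core (GAAANNGAAA) was found only in *B2m*, the NF-kB motif in *H2-K1*, *H2-D1* and *B2m*, and the gamma-interferon activation site (GAS) letters TTCNNNGAA only in *Psmb8*, at -97. The CCAAT letters were found in *H2-K1*, *H2-D1*, *B2m*, *Tapbp*, *Tap1* and *Psmb9*. In *Tap1* and *Psmb9* they are the same bases, since their windows overlap by 275 bases on opposite strands. *Psmb10* held none of the 4 motifs. Of all 32851 promoter windows, 3.44% held the ISRE core, 8.46% the NF-kB motif, 8.3% the GAS letters and 37.4% the CCAAT letters. A match describes letters in a window and is not evidence of binding. The search used fixed letter patterns, so an element that differs from its pattern by a base is missed. The lack of a match is therefore not the lack of an element.

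The deposited values are TPM, transcript levels corrected for length, in which each library adds up to 1000000, so the sequencing depth itself is not kept. Read from the steps of low values, the approximate depth relative to the deepest library was 0.5, 1 and 0.59 in OSKA − 4OHT replicates 1, 2 and 3. It was 0.895, 0.959 and 0.796 in OSKA + 4OHT replicates 1, 2 and 3. The groups were compared with limma-trend, after log2(TPM + 0.5) transformation, in the 15382 genes whose mean reached 1 TPM. Calls needed a p-value under 0.05 after Benjamini-Hochberg adjustment together with an absolute log2 fold change above 1. All fold changes are on this scale, where the pseudocount makes the changes of low genes look smaller. Of all genes tested, 4.23% were called, 2.87% as higher and 1.37% as lower in the OSKA + 4OHT group. On simulated data of this design, 38.4% of the tested genes with a true log2 change of 2 were recovered.

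None of the 10 genes was called with limma-trend. An unadjusted limma-trend p-value under 0.05 was found for *H2-K1*, *B2m*, *Tap1*, *Tapbp* and *Psmb9*, all with higher values in the OSKA + 4OHT group. In that direction it was found for 14.1% of all genes tested. Every OSKA + 4OHT well lay above every OSKA − 4OHT well in *H2-K1*, *B2m*, *Tapbp* and *Psmb9*, which was also the case in 18.1% of all genes tested. Apart from *Nlrc5*, the log2 fold change was negative in *Tap2* and positive in the other genes. Over all genes tested the median log2 fold change was 0.14, with 59.3% positive values. These values describe genes that were chosen with earlier results of these data known, and are not a test of the pathway. *Nlrc5* passed the filter on low values only through its OSKA + 4OHT wells, so it is left out of these comparisons with all genes. Its treated wells also lay above its control wells, with an unadjusted limma-trend p of 0.0102.

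**Figure D1:**
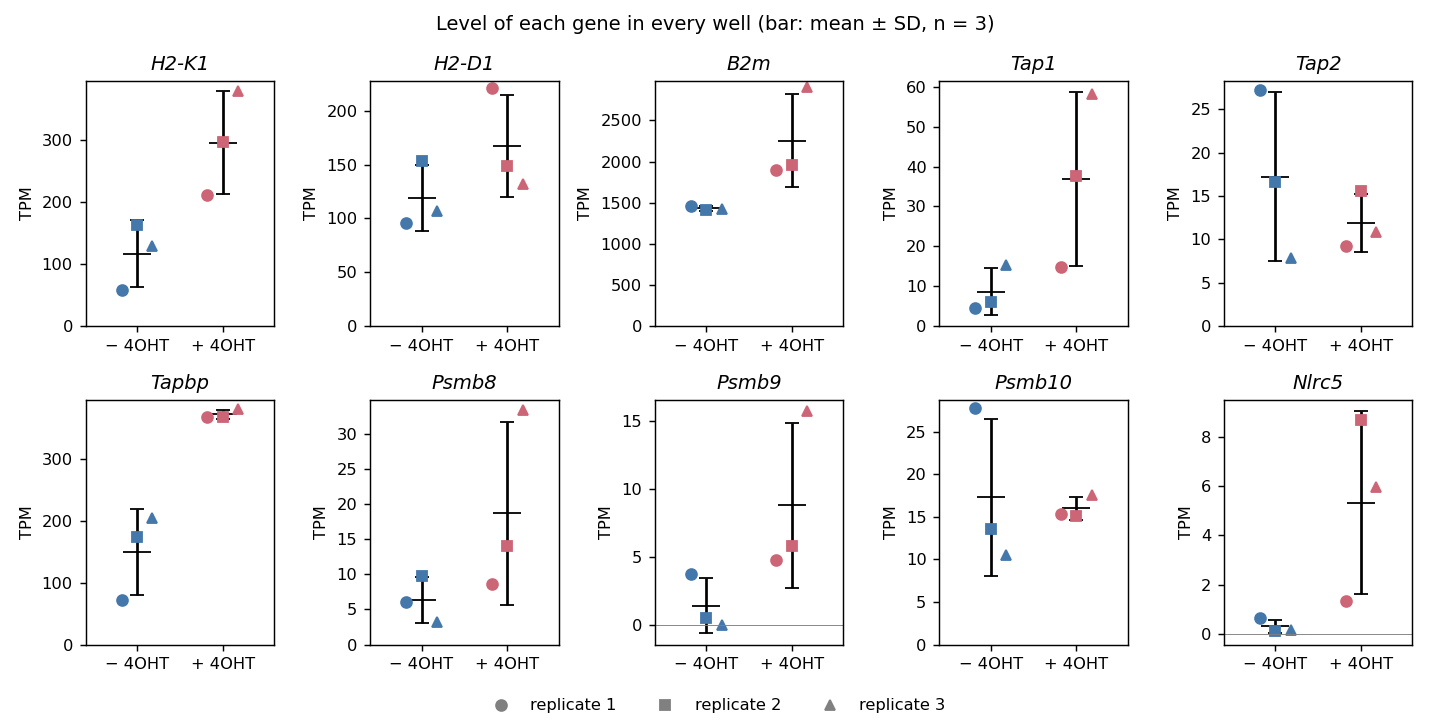
TPM of each of the 10 genes in every well, with points for single wells (marker shape: replicate number) and bars for the mean ± SD of 3 wells in each group. The OSKA + 4OHT wells of *H2-K1*, *B2m*, *Tapbp*, *Psmb9* and *Nlrc5* all lie above the OSKA − 4OHT wells, while the groups overlap in the other 5 genes.

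*H2-K1* encodes a classical heavy chain that presents peptides to cytotoxic T cells. Its level was 57.4, 163 and 128 TPM in OSKA − 4OHT replicates 1, 2 and 3 and 212, 295 and 378 TPM in OSKA + 4OHT replicates 1, 2 and 3. All treated wells lay above all control wells, with means of 116 ± 53.7 and 295 ± 83.2 TPM (SD, n = 3 each). This gave a log2 fold change of 1.43 (standard error 0.417, limma-trend, Benjamini-Hochberg adjusted p = 0.113), and it was not called.

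*H2-D1*, the second classical heavy chain, had 96.1, 154 and 107 TPM in OSKA − 4OHT replicates 1, 2 and 3, against 221, 149 and 132 TPM in OSKA + 4OHT replicates 1, 2 and 3. The groups overlapped, and the highest treated well was replicate 1, the well with the lowest *H2-K1* of its group. For *H2-D1* the log2 fold change was 0.48 (95% interval -0.14 to 1.11, limma-trend, Benjamini-Hochberg adjusted p = 0.352), and 0.27 without OSKA + 4OHT replicate 1. The ratio of *H2-K1* to *H2-D1* was 0.597, 1.06 and 1.20 in the control wells and 0.957, 1.99 and 2.86 in the treated wells. These ratios overlapped, and an exact permutation test on their log2 values, 2-sided, gave p = 0.3.

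Reads of heavy chain genes are hard to assign. Of all 50-base stretches in the annotated transcripts of *H2-K1*, 9.63% also occur in another gene, and for *H2-D1* the share is 12.8%. Class I genes also differ between mouse strains, and how reads from DBA/2 or ICR alleles were assigned to the reference genes was not tested. The sum over 18 H2 class I heavy chain genes, in which *H2-K1* and *H2-D1* made up between 76.7% and 88.3%, depends less on how reads were split among them. It was 199.96, 359 and 287 TPM in OSKA − 4OHT replicates 1, 2 and 3 and 527, 569 and 635 TPM in OSKA + 4OHT replicates 1, 2 and 3. The treated wells lay closer together than the control wells and all above them. The log2 difference of the sums was 1.07 (SD of the log2 values 0.425 and 0.135, n = 3 each), with p = 0.1 in an exact permutation test, 2-sided, the smallest value that 3 wells against 3 can give. In all, 9 such ratios and sums were tested, and after Benjamini-Hochberg adjustment over them no p-value of the exact tests was under 0.3.

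*B2m* encodes β2-microglobulin, the light chain shared by all class I molecules. It had the highest level of the 10 genes, 1458, 1410 and 1418 TPM in OSKA − 4OHT replicates 1, 2 and 3 and 1901, 1960 and 2903 TPM in OSKA + 4OHT replicates 1, 2 and 3. The control wells differed little, with 1429 ± 25.8 TPM (SD, n = 3), and all treated wells lay above them at 2255 ± 563 TPM (SD, n = 3). Its log2 fold change of 0.63 (standard error 0.171, limma-trend, Benjamini-Hochberg adjusted p = 0.0932) was under the threshold of 1 and did not pass the test. *B2m* was between 3.93 and 7.29 times the summed heavy chains in the control wells and between 3.44 and 4.58 times in the treated wells, so these ratios overlapped (exact permutation test on log2 values, 2-sided, p = 0.2).

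*Tap1* and *Tap2* encode the subunits of the peptide transporter. *Tap1* had 4.49, 5.94 and 15.3 TPM in OSKA − 4OHT replicates 1, 2 and 3, against 14.7, 37.7 and 58.3 TPM in OSKA + 4OHT replicates 1, 2 and 3. The groups overlapped by a single pair of wells, OSKA − 4OHT replicate 3 and OSKA + 4OHT replicate 1. Between the groups the log2 fold change was 2.02 (standard error 0.624, limma-trend, Benjamini-Hochberg adjusted p = 0.128).

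*Tap2* was the gene of the 10 with a negative log2 fold change, -0.39 (95% interval -1.50 to 0.73, limma-trend, Benjamini-Hochberg adjusted p = 0.670). Its level was 27.3, 16.6 and 7.86 TPM in OSKA − 4OHT replicates 1, 2 and 3 and 9.20, 15.6 and 10.9 TPM in OSKA + 4OHT replicates 1, 2 and 3. The control wells spanned the whole range of the treated wells. The level of *Tap1* relative to *Tap2* was 0.165, 0.358 and 1.94 in the control wells and 1.597, 2.41 and 5.37 in the treated wells. These ratios overlapped (exact permutation test on log2 values, 2-sided, p = 0.2).

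*Tapbp* encodes tapasin, which holds the empty heavy chain at the transporter. Its level was 71.9, 173 and 204 TPM in OSKA − 4OHT replicates 1, 2 and 3 and 368, 369 and 381 TPM in OSKA + 4OHT replicates 1, 2 and 3. The treated wells were nearly alike, while the control wells spread widely, the lowest being replicate 1, the shallowest library. The log2 fold change was 1.44 (standard error 0.381), and the limma-trend p of 0.0867 after Benjamini-Hochberg adjustment was the lowest of the 10 genes. Without OSKA − 4OHT replicate 1 the adjusted p from limma-trend was 0.0347, at a log2 fold change of 0.98, which is under the fold threshold.

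The immunoproteasome subunits replace the constitutive catalytic subunits of the proteasome core. *Psmb8* (β5i, the chymotrypsin-like subunit) had 6.12, 9.71 and 3.14 TPM in OSKA − 4OHT replicates 1, 2 and 3, against 8.59, 14.1 and 33.4 TPM in OSKA + 4OHT replicates 1, 2 and 3. The groups overlapped through OSKA + 4OHT replicate 1, with a log2 fold change of 1.40 (standard error 0.582, limma-trend, Benjamini-Hochberg adjusted p = 0.237), and of 0.88 without OSKA + 4OHT replicate 3.

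*Psmb9* (β1i) was at 3.78 and 0.540 TPM in OSKA − 4OHT replicates 1 and 2, was listed at 0 in replicate 3, and was at 4.81, 5.80 and 15.7 TPM in OSKA + 4OHT replicates 1, 2 and 3. The groups did not overlap, but the lowest treated well was close to the highest control well. The control values rest on at most about 8.12, 2.32 and 0 reads and the treated values on at most about 18.5, 23.9 and 53.8 reads. Its log2 fold change was 2.64 (standard error 0.870, limma-trend, Benjamini-Hochberg adjusted p = 0.149), and it ranged from 1.67 to 3.62 with pseudocounts from 2 down to 0.1.

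*Psmb10* (β2i) had 27.8, 13.6 and 10.504 TPM in OSKA − 4OHT replicates 1, 2 and 3, against 15.4, 15.1 and 17.6 TPM in OSKA + 4OHT replicates 1, 2 and 3. The treated wells lay inside the range of the control wells. The log2 fold change was 0.0099 (95% interval -0.86 to 0.88, limma-trend, Benjamini-Hochberg adjusted p = 0.992), an interval that leaves room for a change in either direction.

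The counterparts of *Psmb8*, *Psmb9* and *Psmb10* are *Psmb5*, *Psmb6* and *Psmb7*, and a ratio within a well does not depend on the scaling of the library. *Psmb8* was at 6.23%, 9.13% and 2.89% of *Psmb5* in OSKA − 4OHT replicates 1, 2 and 3 and at 6.66%, 9.56% and 33.7% in OSKA + 4OHT replicates 1, 2 and 3. *Psmb9* was at 2.26%, 0.327% and 0% of *Psmb6* in the control wells and at 2.37%, 2.66% and 7.11% in the treated wells. *Psmb10* was at 25.4%, 9.92% and 8.77% of *Psmb7* in the control wells and at 10.2%, 9.17% and 12.2% in the treated wells. In every well the constitutive subunit was thus at a higher level per length than its immunoproteasome counterpart.

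Only the ratio of *Psmb9* to *Psmb6* did not overlap between the groups. Its log2 difference was 2.29 with a pseudocount of 0.5 (SD 1.59 and 0.820, n = 3 each; exact permutation test, 2-sided, p = 0.1). The log2 difference was 1.24 for *Psmb8* over *Psmb5* (exact permutation test, 2-sided, p = 0.2) and -0.32 for *Psmb10* over *Psmb7* (exact permutation test, 2-sided, p = 0.9). Without OSKA + 4OHT replicate 3 or OSKA − 4OHT replicate 3 the difference for *Psmb8* over *Psmb5* was 0.54 or 0.78. For the 3 immunoproteasome genes summed over the 3 constitutive ones it was 0.50 (exact permutation test, 2-sided, p = 0.4), and OSKA + 4OHT replicate 3 had the highest ratio, 14.4%.

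**Figure D2:**
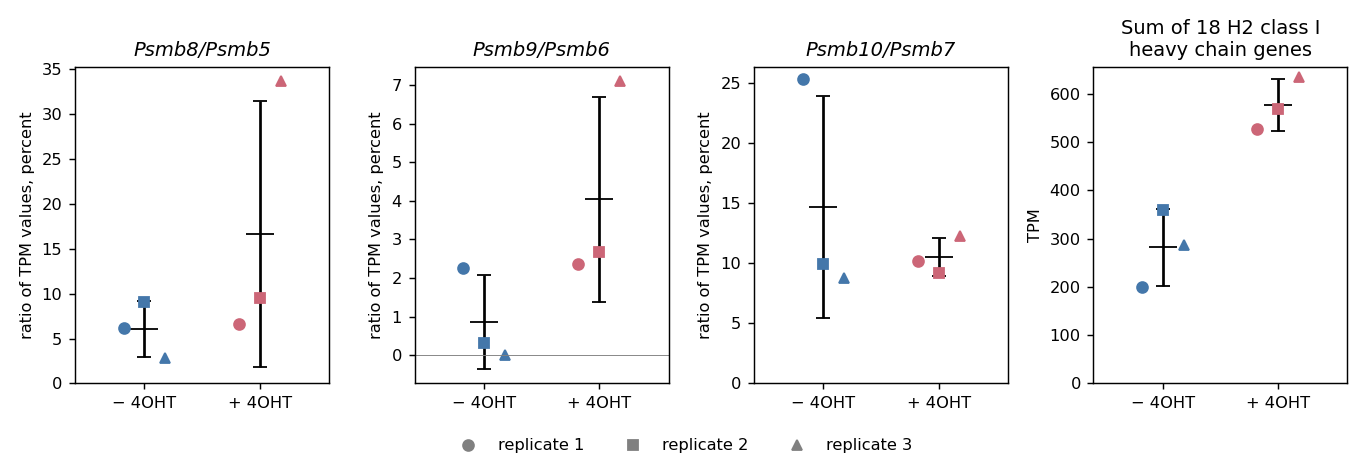
Ratio of each immunoproteasome gene to its constitutive counterpart in percent of TPM, and the summed TPM of 18 H2 class I heavy chain genes, in every well (points, marker shape: replicate number) with the mean ± SD of 3 wells per group (bars). The groups overlap for *Psmb8*/*Psmb5* and *Psmb10*/*Psmb7* and do not overlap for *Psmb9*/*Psmb6* and for the summed heavy chains.

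*Nlrc5* encodes the class I transactivator. Its level was 0.633, 0.137 and 0.157 TPM in OSKA − 4OHT replicates 1, 2 and 3 and 1.32, 8.69 and 5.97 TPM in OSKA + 4OHT replicates 1, 2 and 3. All treated wells lay above all control wells, and replicate 1 was again the lowest treated well. The control values rest on at most about 3.78, 1.63 and 1.11 reads, and the treated ones on at most about 14.2, 99.6 and 56.8 reads. Its log2 fold change was 2.61 (standard error 0.727, limma-trend, Benjamini-Hochberg adjusted p = 0.0997) and ranged from 1.52 to 3.58 with pseudocounts from 2 down to 0.1.

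**Figure D3:**
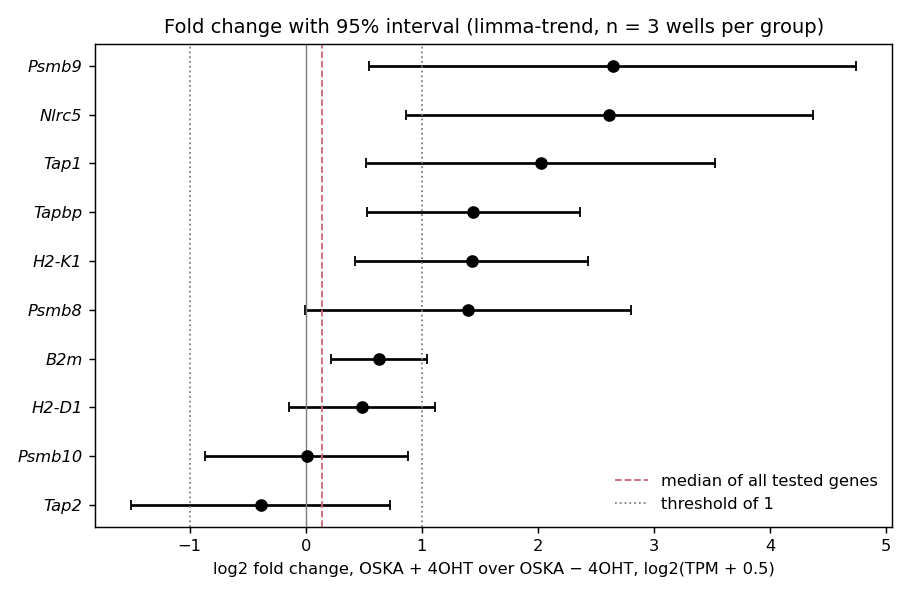
Log2 fold change (OSKA + 4OHT over OSKA − 4OHT, on the log2(TPM + 0.5) scale) of the 10 genes from limma-trend, with points for the estimate and bars for the 95% interval (n = 3 wells per group). The intervals of *H2-D1*, *Psmb8*, *Tap2* and *Psmb10* include 0, and the dashed line marks the median of all genes tested, 0.14.

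The levels fell into tiers in both groups. In TPM, which is per transcript length, *B2m* was highest, *Tapbp*, *H2-K1* and *H2-D1* followed, and the other 6 genes were lower. Between these 3 tiers the wells did not overlap within either group, whereas neighbours in the order within a tier did. By group means the lower tier ran from *Psmb10* (17.3 TPM) through *Tap2*, *Tap1*, *Psmb8* and *Psmb9* to *Nlrc5* (0.309 TPM) in the OSKA − 4OHT group. In the OSKA + 4OHT group *Tap1* (36.9 ± 21.8 TPM, SD, n = 3) and *Psmb8* (18.7 ± 13.02 TPM, SD, n = 3) stood above *Psmb10* (16.01 ± 1.37 TPM) and *Tap2* (11.9 ± 3.33 TPM).

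The treated wells differed among themselves in the same direction for most of the genes. OSKA + 4OHT replicate 1 was the lowest well of its group for 8 of the 10 genes, *H2-D1* and *Psmb10* being the exceptions, and replicate 3 was the highest for 7. OSKA − 4OHT replicate 1, the shallowest library, was the lowest of its group for 4 genes and the highest for 5.

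Other class I heavy chain genes were measured as a list of 20, of which 12 were tested. *H2-Q4*, of the Q region, was the only one called, while 2.87% of all genes tested were called higher. *H2-Q4* rose from 9.23, 6.76 and 10.8 TPM in OSKA − 4OHT replicates 1, 2 and 3 to 22.05, 27.9 and 29.4 TPM in OSKA + 4OHT replicates 1, 2 and 3. Its log2 fold change was 1.53 (standard error 0.238, limma-trend, Benjamini-Hochberg adjusted p = 0.0210). In the 6 fits that left out a single well *H2-Q4* was not called, with a limma-trend p between 0.0504 and 0.1001 after Benjamini-Hochberg adjustment. *H2-Q6*, *H2-Q7*, *H2-T24* and *H2-M5* passed the filter only through their OSKA + 4OHT wells, so no median or count of non-overlapping groups is given for the 12.

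*H2-T23*, which encodes the Qa-1 molecule that natural killer cells read, was at 10.1 ± 3.94 and 26.7 ± 3.36 TPM (SD, n = 3 each), with a limma-trend p of 0.0564 after Benjamini-Hochberg adjustment. *H2-T22* was at 22.9 ± 4.30 and 43.1 ± 7.60 TPM (SD, n = 3 each; limma-trend, Benjamini-Hochberg adjusted p = 0.0652). *H2-Q7* was listed at 0 in all control wells but reached 4.39, 0.985 and 10.96 TPM in the treated replicates 1, 2 and 3. *H2-Q6* was at 0.417 ± 0.401 and 4.28 ± 2.20 TPM (SD, n = 3 each). These genes belong to families of near copies, so the split of reads among them is uncertain.

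The constitutive catalytic subunits had small positive differences. *Psmb5*, *Psmb6* and *Psmb7* had log2 fold changes of 0.24, 0.35 and 0.33, and none of the 3 was called. Among 7 genes of the PA28 regulator and of proteasome assembly none was called either, with a median log2 fold change of 0.43. *Psme1* and *Psme2* encode the PA28 caps that interferon is known to raise. *Psme1* had 67.4, 69.3 and 81.2 TPM in OSKA − 4OHT replicates 1, 2 and 3, against 95.1, 130.4 and 130.7 TPM in OSKA + 4OHT replicates 1, 2 and 3, and *Psme2* at 75.4 ± 11.6 and 129.9 ± 17.4 TPM (SD, n = 3 each). The treated wells lay above the control wells in 3 of the 7, *Psme1*, *Psme2* and the assembly gene *Psmg1*, beside 18.1% of all genes tested. After Benjamini-Hochberg adjustment the limma-trend p was 0.0779 for *Psme1*, 0.0545 for *Psme2* and 0.430 for *Psmg1*.

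The loading and trimming partners include chaperones that serve many proteins besides class I. None of the 11 genes was called, their median log2 fold change was 0.12, and the treated wells lay above the control wells in 2 of them, beside 18.1% of all genes tested. *Calr* (calreticulin) was at 678 ± 81.8 and 806 ± 94.2 TPM and *Pdia3* (ERp57) at 749.9 ± 31.6 and 701 ± 50.3 TPM (SD, n = 3 each). *Tapbpl*, a relative of tapasin, was at 5.96 ± 0.537 and 9.03 ± 2.48 TPM (SD, n = 3 each; limma-trend, Benjamini-Hochberg adjusted p = 0.300). *Erap1*, which trims peptides in the endoplasmic reticulum, was at 29.6 ± 13.7 and 18.9 ± 9.59 TPM (SD, n = 3 each) with overlapping wells.

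**Figure D4:**
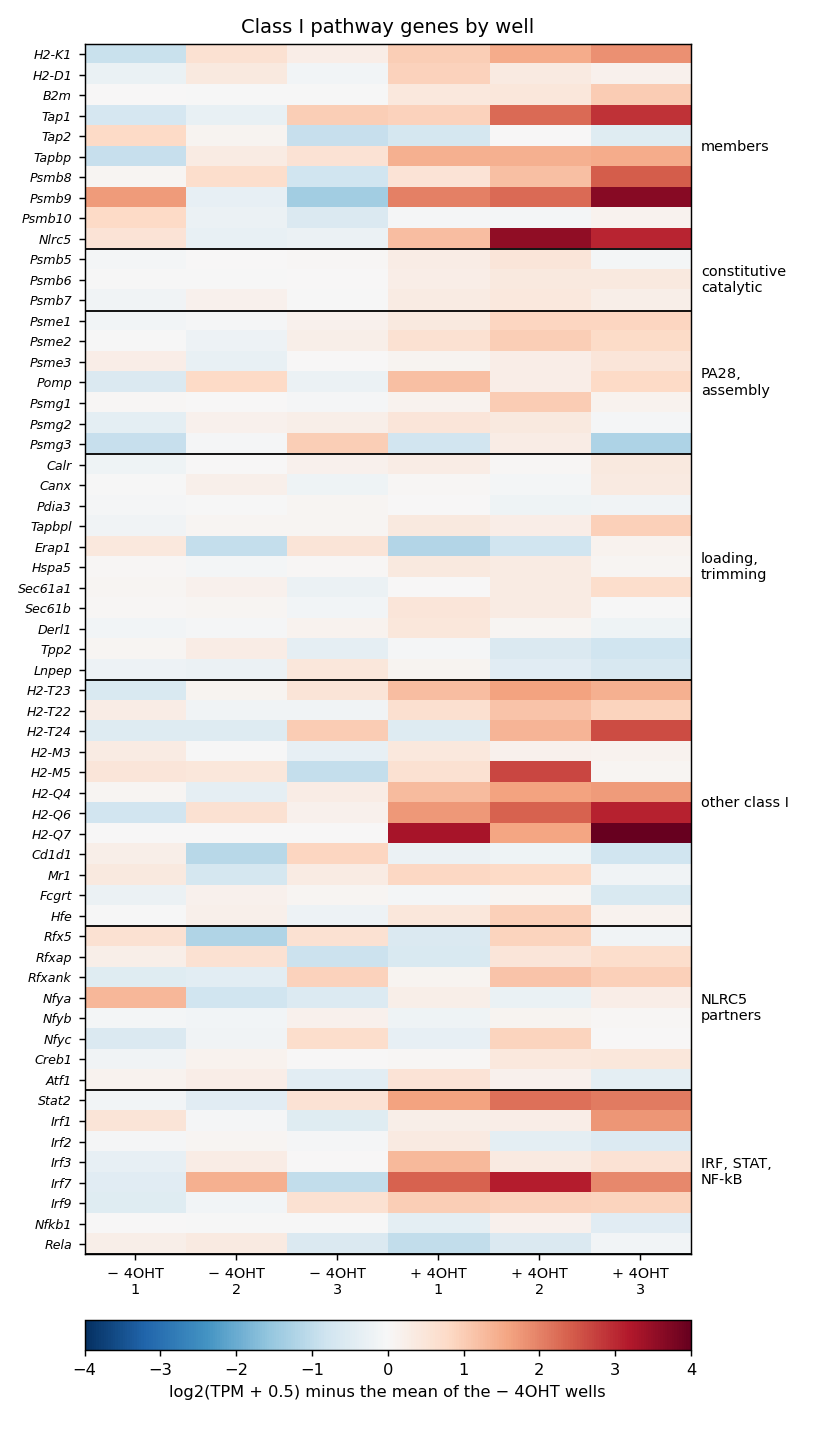
Difference of log2(TPM + 0.5) in each well from the mean of the OSKA − 4OHT wells, for 59 genes of the pathway in rows and the 6 wells in columns, with a colour scale from -4 to 4. *H2-Q7*, *Psmb9* and *Nlrc5* are among the strongest colours in the OSKA + 4OHT wells, and the rows of the constitutive subunits stay near 0.

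The partners of NLRC5 at class I promoters were measured in all wells. All 8 genes (*Rfx5*, *Rfxap*, *Rfxank*, *Nfya*, *Nfyb*, *Nfyc*, *Creb1* and *Atf1*) were tested and none was called. Their median log2 fold change was 0.15, and the groups overlapped in all 8. Of all genes tested, 18.1% were higher and 10.0% lower without overlap. NF-Y, encoded by *Nfya*, *Nfyb* and *Nfyc*, is known to bind CCAAT letters. Whether it binds those marked in the promoters above was not tested. *Nfyb* was at 21.3 ± 2.42 and 21.3 ± 2.10 TPM (SD, n = 3 each), and *Rfxank* had the largest log2 fold change of the 8, 0.74 (95% interval -0.48 to 1.95).

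Among 9 interferon and NF-kB factors that act on these promoters, 8 were tested and 1 was called higher, beside 2.87% of all genes tested. The median log2 fold change of the 8 was 0.75, and the treated wells lay above the control wells in 4 of them, beside 18.1% of all genes tested. *Stat2*, which carries the signal of type I and type III interferons, rose from 13.2, 10.3 and 21.9 TPM to 44.6, 68.8 and 62.9 TPM in replicates 1, 2 and 3 of each group (log2 fold change 1.97, standard error 0.319, limma-trend, Benjamini-Hochberg adjusted p = 0.0239). Of the 6 fits that left out a single well, *Stat2* was called only in the one without OSKA − 4OHT replicate 3, with limma-trend p-values between 0.0390 and 0.114 after Benjamini-Hochberg adjustment. *Irf7* was at 14.6 ± 13.8 and 67.6 ± 30.2 TPM and *Irf9* at 27.9 ± 11.2 and 51.5 ± 1.76 TPM (SD, n = 3 each). Neither was called, but their groups did not overlap. *Irf1*, a direct activator of *Tap1* and *Psmb9*, had 15.1, 10.1 and 7.38 TPM in OSKA − 4OHT replicates 1, 2 and 3, against 12.4, 12.7 and 36.5 TPM in OSKA + 4OHT replicates 1, 2 and 3. Only OSKA + 4OHT replicate 3 lay above all control wells. The NF-kB subunit genes *Nfkb1* and *Rela* had log2 fold changes of -0.22 and -0.56 and were not called.

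Transcripts of the 8 interferon genes in the list were not seen at this time point. Other interferon genes were not looked up, and a value of 0 in a library leaves room for a low level. *Ifnb1*, *Ifng*, *Ifna1*, *Ifna2*, *Ifna4*, *Ifnl2*, *Ifnl3* and *Ifne* were listed at 0 in all 6 libraries. The 4 receptor genes were all present and none was called. *Ifnar2* was at 32.4 ± 4.17 and 44.8 ± 4.85 TPM (SD, n = 3 each; limma-trend, Benjamini-Hochberg adjusted p = 0.186), and *Ifnar1* at 24.5 ± 1.58 and 22.9 ± 1.13 TPM (SD, n = 3 each). *Ifngr1* had 24.1, 24.3 and 46.9 TPM in OSKA − 4OHT replicates 1, 2 and 3, against 20.1, 22.5 and 22.6 TPM in OSKA + 4OHT replicates 1, 2 and 3, with all treated wells below the control wells (log2 fold change -0.47, limma-trend, Benjamini-Hochberg adjusted p = 0.418).

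Class II genes, which serve antigen presentation by professional antigen-presenting cells, were low. Of 9 genes 4 were tested and none was called. *Ciita*, the class II relative of *Nlrc5*, was listed at 0 in 5 libraries and at 0.0910 TPM in OSKA + 4OHT replicate 3. *Cd74*, the invariant chain, was at 2.40 ± 1.27 and 2.21 ± 0.365 TPM (SD, n = 3 each). *H2-Ab1* was listed at 0 in all control wells and was at 1.56, 2.64 and 2.07 TPM in OSKA + 4OHT replicates 1, 2 and 3, and it passed the filter only through these wells.

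Markers of the cell types that a well can hold were summed. The 8 fibroblast markers summed to between 7799 and 9346 TPM in the OSKA − 4OHT libraries and to between 5371 and 6829 TPM in the OSKA + 4OHT libraries. The treated wells lay below the control wells in 5 of the 8 and above them in 2, beside 10.0% and 18.1% of all genes tested. *Col3a1* was called higher and *Pdgfrb* lower, while *Col1a2* and *Fn1* were lower with a limma-trend p of 0.0285 and 0.0128 after Benjamini-Hochberg adjustment but under the fold threshold. The 8 markers of pluripotent cells summed to between 2.87 and 3.69 TPM in the OSKA − 4OHT libraries and to between 38.1 and 54.2 TPM in the OSKA + 4OHT libraries. Since 5 of the 6 tested passed the filter only through the OSKA + 4OHT wells, no count of calls is given for them. The part of this difference in the levels of the class I genes was not tested. The 9 markers of macrophages and other leukocytes, cells with much class I RNA, summed to between 149 and 174 TPM in the OSKA − 4OHT libraries and were lower in the OSKA + 4OHT libraries, at between 88.1 and 110 TPM. *Cd3e*, which defines T cells, was listed at 0 in all libraries, and *Ptprc*, the pan-leukocyte gene, lay between 0.435 and 1.67 TPM. None of the leukocyte markers was called, but *Lyz2*, a macrophage lysozyme gene, was lower under the fold threshold, at 95.2 ± 5.63 and 51.8 ± 7.77 TPM (SD, n = 3 each; limma-trend, Benjamini-Hochberg adjusted p = 0.0299). Of the 4 endothelial markers only 1 was tested, and it was not called.

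The other genes of the H2 region were compared by position. Between *Tapbp* and *H2-D1*, the outermost of the 10 genes on chromosome 17 (chr17:33915899-35267499) lie 86 other protein-coding genes that are not class I heavy chain genes, of which 61 were tested and none was called by limma-trend. An unadjusted p-value under 0.05 was found for 8 of the 61 as higher, beside 14.1% of all genes tested, and for 1 as lower. The treated wells lay above the control wells in 13 of the 61, beside 18.1% of all genes tested. The median log2 fold change of these neighbours was 0.26, beside 1.43 for the 7 class I pathway genes in the same interval.

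The genes whose pattern over the 6 wells was most like the mean of the 10 genes were taken from all other genes tested, by Pearson's r on the log2(TPM + 0.5) scale. These were *Golm1* (r = 0.995), *Mtrf1* (r = 0.990), *Mrpl42* (r = 0.990), *Zfp948* (r = 0.987) and *Rims2* (r = 0.986). With 6 wells in 2 groups and 15382 genes to choose from, such values describe a ranking and carry no test. *Golm1* had 81.5, 78.6 and 75.1 TPM in OSKA − 4OHT replicates 1, 2 and 3, against 106, 124 and 140.0 TPM in OSKA + 4OHT replicates 1, 2 and 3. As in most of the class I genes, replicate 1 was the lowest and replicate 3 the highest of its treated wells.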

How the data were processed

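The 10 genes and the related lists were chosen with earlier results of these data known. Per the methods of the study, polyA libraries made with a stranded kit were sequenced as 50-bp single-end reads, trimmed with Trim Galore and quantified with Salmon against the mouse transcriptome. The annotation release, the genome build and the tool versions are not given in the sources used here. The values deposited by the authors are TPM per gene and well. Their own comparison columns, a log2 fold change, a log2 average level, an F score and an unadjusted p-value, were deposited by the authors in the same table and were not used. TPM keeps no counts, so no count model was run.

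Gene symbols and gene positions come from GENCODE M21 (GRCm38), matched on the Ensembl identifier for 54097 of 54331 genes. Promoters came from the RefSeq table of GRCm38.p6. Differences were tested in R 4.3.3 with limma 3.58.1, limma-trend on log2(TPM + 0.5), in genes whose mean reached 1 TPM, 2-sided, with Benjamini-Hochberg adjustment over all genes tested and without a block. Single sums and ratios were tested with exact permutation tests in scipy 1.17.1 (Python 3.11.15). The test was checked on simulated data, with 71 of 185 changed genes recovered and 7 false calls. Read numbers are approximate upper values from the step size of low TPM values of single-transcript genes, with an assumed fragment length of 250 bases.

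The related lists were summed and counted without 2 genes that are not reported here. All 10 genes and any gene of the lists were named by rule, with the 5 genes of most similar pattern. Alternatives were other filters, pseudocounts and scalings, other limma settings, a replicate block and leaving out each well in turn.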

Additional observations from a re-analysis of the deposited data

How the results depend on the processing

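None of the 10 genes was called under any of the 16 alternatives (15 for *Nlrc5*, whose mean is under 5 TPM). The smallest adjusted p-value of each gene from limma-trend ranged over the genes from 0.0347 for *Tapbp*, without OSKA − 4OHT replicate 1, to 0.361 for *Psmb10*. The sign changed for *Tap2* without OSKA − 4OHT replicate 1 (log2 fold change 0.018) and for *Psmb10* after trimmed-mean (TMM) scaling (-0.098), after quantile normalization (-0.14) and without OSKA − 4OHT replicate 2 (-0.0997), OSKA − 4OHT replicate 3 (-0.28) or OSKA + 4OHT replicate 3 (-0.057). Over all fits without a single well, *Tap2* ranged from -0.85 to 0.018 and *Psmb10* from -0.28 to 0.41. The log2 difference of *Psmb10* over *Psmb7* ranged from -0.60 to 0.16 when single wells were left out. The 441 higher and 210 lower genes (67.7% higher) became 367 and 282 (56.6%) after TMM scaling and 335 and 296 (53.1%) after quantile normalization, and the median of all genes moved from 0.14 to 0.043 and -0.0047.

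Leaving out single wells gave 134 to 307 higher and 65 to 120 lower genes. Among the related genes, of which 2 were called (*H2-Q4* and *Stat2*), leaving out single wells gave 0 to 2 calls. Genes called only under an alternative were *Irf9* (without OSKA − 4OHT replicate 3), *H2-Q7* (without OSKA + 4OHT replicate 2), *H2-T23* (mean of at least 5 TPM) and *H2-Ab1* (no filter, and limma without the trend), which was also the 1 neighbour in the H2 region called under these settings. Replicate numbers were not found to pair the wells, since the correlations of same-numbered deviations were 0.0235, 0.0341 and 0.0837. With the replicate block 31 genes were higher and 16 lower, 0 related genes were called, and *Tap1* had the smallest adjusted p of the 10 genes, 0.0765 from limma-trend. For these changes the cause was not tested. The depth is not kept in TPM, which limits *Nlrc5* and *Psmb9* most, since few reads stand behind their control values.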
